A study of Mus musculus with 28 samples.

Results

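The serpins are a family of proteins that mostly inhibit serine proteases, and 48 of the 18820 genes measured in these mouse livers belong to it. A gene was taken as a member when an array probe set named that gene alone and its symbol began with Serpin. Each of the 48 genes had 1 such probe set. By role, 4 belong to the alpha-1 antitrypsin family, 3 to the Serpina3 family, 2 carry hormones, 6 restrain coagulation, fibrinolysis or complement, 8 are other secreted serpins, 1 is the collagen chaperone Serpinh1 and 24 are intracellular serpins of clade B. Of 20 genes listed as secreted liver serpins, the pseudogene Serpina4-ps1 counted among them, 15 were measured. Serpina1a and Serpina1e were read only by probe sets that name several Serpina1 genes, and Serpina3c, Serpina3k and Serpina3m were not analysed here.

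An inhibitory serpin presents an exposed loop to its protease, is cut there, and then folds so that the protease is trapped and distorted. Hepatocytes secrete several serpins into plasma in large amounts, among them alpha-1 antitrypsin against neutrophil elastase, antithrombin against clotting proteases and the carriers of cortisol-like steroids and thyroxine, which bind hormones and inhibit no protease. Clade B serpins lack a classical signal peptide, stay inside cells and are best known for guarding leukocytes and epithelia against their own granule proteases.

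The livers came from 28 male C57BL/6J mice, individually housed, with 1 single-colour array for each mouse. Every mouse followed an intermittent diet when it was sampled: 1 week of moderate-fat food eaten freely, with 25% of its energy from fat, alternated with 1 week of food restricted to 60% of the energy intake of controls. Lifelong groups alternated from 9 weeks of age and were sampled at 3 ages, with 6 livers at 6 months, 7 at 12 months and 7 at 24 months. In the switched group, 8 mice ate the moderate-fat food continuously until 12 months, then alternated, and were sampled at 24 months. Before sampling, all mice went without food for 4 hours, received carboxymethyl cellulose by gavage, and went without food for 6 hours more. The labels used here do not state the week of the cycle at sampling.

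Values are log2 expression after robust multi-array averaging (RMA), and a difference of 1 is a doubling of the array signal. Array medians lay between 5.23 and 5.31, and the number of arrays limits the precision. All 8 hepatocyte markers lay above the array median in all 28 livers. Differences come from 1 limma fit with array batch (G150, G151 or G152, read from the array names) as a term, and adjusted p is Benjamini-Hochberg over all 35556 probe sets, and 0.05 was the threshold. SE denotes limma's moderated standard error of a difference. Group values are given as the range from the lowest to the highest liver, with the median, where a result turns on them. The livers are separate mice, and in whole liver fewer cells of a type and less RNA per cell cannot be told apart. The comparisons share groups: both comparisons with 6 months share those 6 livers, and the 3 that involve lifelong 24-month livers share those 7.

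Few serpins passed the threshold. Between 6 and 24 months of the lifelong diet, 2 of 48 serpins (4.17%) passed, where 6.23% of all genes did. Both were higher at 24 months, as were 3.01% of all genes. At 12 against 6 months 0 serpins passed (0.829% of all genes), at 24 against 12 months 0 passed (0.0266%), and between switched and lifelong livers 0 passed (0.0266%). At an unadjusted p under 0.05 the limma counts were 6 of 48 at 12 against 6 months (12.5%, all genes 15.1%), 15 of 48 at 24 against 6 months (31.2%, all genes 22.2%), 8 of 48 at 24 against 12 months (16.7%, all genes 12.3%) and 6 of 48 in the switch (12.5%, all genes 7.87%). In the switch all 6 of these differences were negative. They include the related Serpina1c and Serpina1d, whose values are not independent. Over all genes, with no limit on p, 48.9% of differences in the switch were positive. No serpin had groups that did not overlap in any of the 4 comparisons, against 0.994%, 2.14%, 0.287% and 0.0478% of all genes in the same order. Across the 48 the median difference was 0.03, 0.02, -0.01 and -0.03 log2, and over all genes it was 0.01, 0.00, -0.01 and 0.00. At the adjusted threshold these counts do not set the serpins apart from all genes.

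The promoter windows of the serpins that passed, and of the closely related alpha-1 antitrypsin genes, are shown to give the sequence context of the members described next. Each is the 250 bases before the gene's start in RefSeq (GRCm38.p6), 5′ to 3′ on the gene's strand, with motif matches in capitals. Serpinb8 lies at chr1:107589756-107590005 (plus strand), Serpinf2 at chr11:75439502-75439751 (minus strand), Serpina1b at chr12:103738190-103738439, Serpina1d at chr12:103773634-103773883 and Serpina1c at chr12:103904951-103905200 (all minus strand).
Serpinb8: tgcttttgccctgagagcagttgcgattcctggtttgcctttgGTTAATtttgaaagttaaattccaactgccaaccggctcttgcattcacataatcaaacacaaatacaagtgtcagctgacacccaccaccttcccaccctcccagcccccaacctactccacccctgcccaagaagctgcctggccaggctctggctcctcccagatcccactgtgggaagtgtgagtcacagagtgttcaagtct
Serpinf2: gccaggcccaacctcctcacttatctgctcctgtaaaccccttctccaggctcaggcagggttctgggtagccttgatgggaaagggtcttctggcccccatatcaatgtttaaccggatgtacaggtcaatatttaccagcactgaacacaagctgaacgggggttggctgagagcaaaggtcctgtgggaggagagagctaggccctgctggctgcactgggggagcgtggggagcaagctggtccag
Serpina1b: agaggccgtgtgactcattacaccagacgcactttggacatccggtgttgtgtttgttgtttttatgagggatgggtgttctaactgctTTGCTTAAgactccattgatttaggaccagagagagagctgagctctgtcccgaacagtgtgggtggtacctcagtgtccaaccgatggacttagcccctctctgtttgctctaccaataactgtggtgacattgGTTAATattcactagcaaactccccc
Serpina1d: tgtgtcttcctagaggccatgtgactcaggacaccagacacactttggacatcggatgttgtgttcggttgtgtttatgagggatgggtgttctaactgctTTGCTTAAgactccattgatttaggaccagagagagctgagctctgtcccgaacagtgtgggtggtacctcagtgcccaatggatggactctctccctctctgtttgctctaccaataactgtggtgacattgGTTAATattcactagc
Serpina1c: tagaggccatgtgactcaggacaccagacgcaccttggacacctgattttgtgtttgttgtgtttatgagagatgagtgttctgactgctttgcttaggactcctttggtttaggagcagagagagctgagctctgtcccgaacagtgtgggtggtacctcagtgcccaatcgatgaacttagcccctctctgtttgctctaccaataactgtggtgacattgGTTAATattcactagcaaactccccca

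Short motifs were searched on both strands of these windows, which RefSeq's table holds for 41 of the 48 members and 11 of the 15 secreted ones. The HNF1 half-site, with the letters GTTAAT, was in 4 of the 11 secreted windows and in 6.52% of 27025 windows of all genes. The secreted windows with it belong to Serpina1b, Serpina1c, Serpina1d and Serpina7. The C/EBP consensus, with the letters TTGCNNAA, was likewise in 4 of the 11, against 9.55% of all windows. Here the secreted windows are those of Serpina12, Serpina1b, Serpina1d and Serpina7. A TATA box, searched as TATAAA, was in 1 of the 11 and in 3504 of the 27025. The STAT consensus, searched as TTCNNNGAA, was in 1 of the 11 and in 7.18% of all. Serpina1b and Serpina1d hold the HNF1 half-site and the C/EBP consensus, Serpina1c and Serpinb8 hold the half-site alone, and Serpinf2 holds none of the 4 motifs. The Serpina1b window shares an unbroken run of 72 bases with Serpina1c and of 64 with Serpina1d, whereas the longest run that any of the 3 shares with Serpinb8 or Serpinf2 is 9 bases. The related Serpina1 windows are therefore not independent, and the counts of 4 among the secreted windows rest partly on shared sequence. All motif matches are letter matches in a window and no measure of binding.

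Serpinb8, an intracellular serpin known to inhibit the proprotein convertase furin, rose most clearly with age. Serpinb8 lay at 4.68 to 5.48 (median 4.96) at 6 months, 5.23 to 6.23 (median 5.36) at 12 months, 5.28 to 6.72 (median 6.46) at 24 months, and 5.54 to 6.67 (median 6.24) in switched livers. At 24 months 6 of 7 lifelong livers stood above the highest 6-month liver, and the 7th, replicate 7, lay at 5.28. The rise from 6 to 24 months was 1.29 (SE 0.22, 95% CI 0.84 to 1.73), or 2.44-fold, with adjusted p = 0.00156 in limma, and all 7 livers exceeded the 6-month mean. Without replicate 7 of the 24-month group, whose array name carries an added suffix, it was 1.50 with adjusted p = 0.000106. Within batches it was 1.32 in G150, 0.05 in G151 (1 liver a group, replicate 7 among them) and 2.02 in G152.

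Between the ages in between, Serpinb8 differed by 0.53 at 12 against 6 months (limma adjusted p = 0.274) and by 0.75 at 24 against 12 months (adjusted p = 0.171). The latter passed once replicate 7 of the 24-month group was left out, at 1.00 with adjusted p = 0.0251. It passed in 2 of 27 alternatives, over which adjusted p ran from 0.0251 to 0.901. The switched livers differed from the lifelong ones at 24 months by -0.05 (95% CI -0.47 to 0.37, limma adjusted p = 0.982). Markers of leukocytes were read in the same livers. Of 6 B and plasma cell markers 4 passed as higher at 24 than at 6 months, where 3.01% of all genes did. Their mean score, the average log2 difference from the mean of all arrays, ran from -0.88 to -0.51 at 6 months and from -0.29 to 1.00 at 24 months. Of 8 macrophage markers 0 passed, with scores of -0.37 to 0.23 at 6 months and -0.51 to 1.09 at 24 months. Of 7 neutrophil markers 0 passed, with scores of -0.36 to -0.06 and -0.21 to 0.97. Yet all 8 macrophage and all 7 neutrophil markers had positive differences at 24 against 6 months, with medians of 0.35 and 0.28. Over all genes 49.5% were positive. Of 7 T and NK cell markers 0 passed, and 5 were positive and 2 negative, with a median of 0.08. The part of the leukocyte markers in the Serpinb8 difference was not tested.

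**Figure D1:**
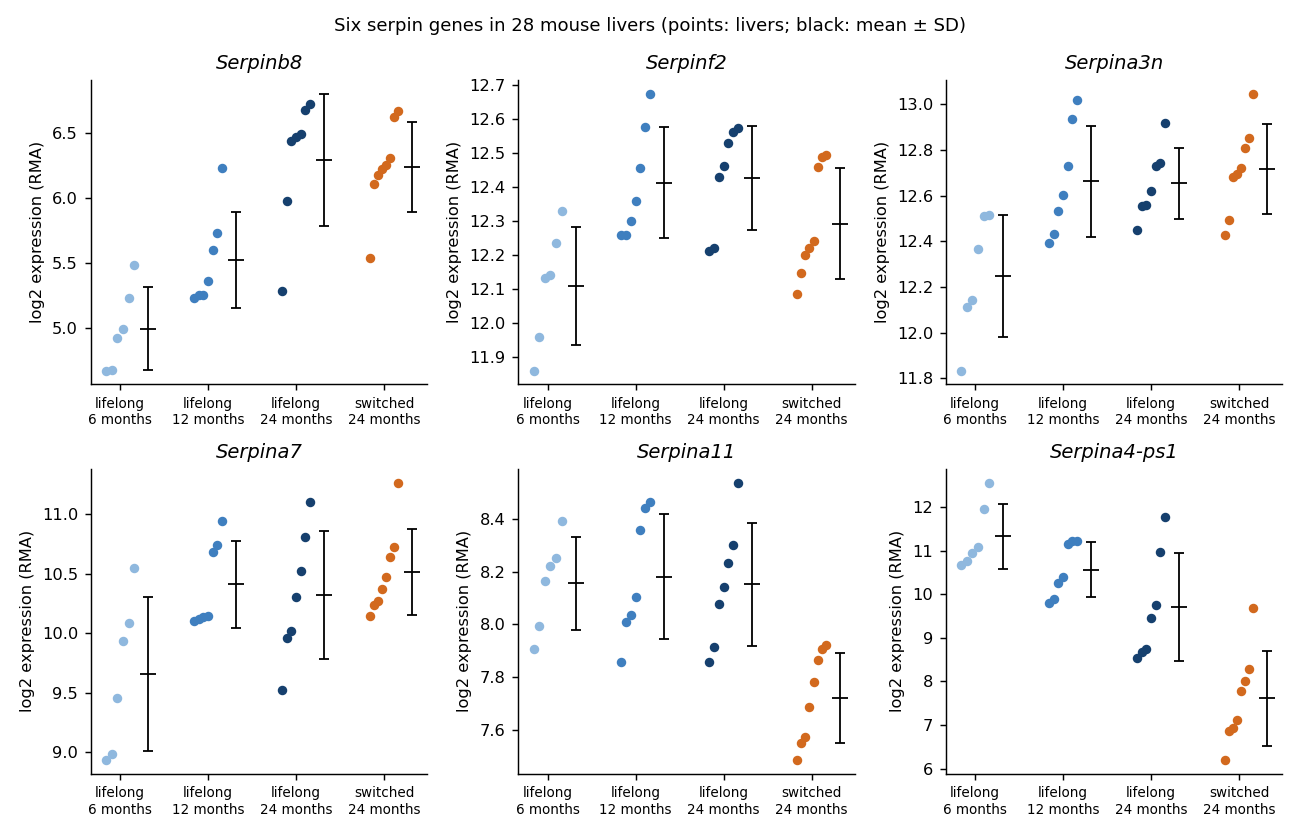
Log2 expression (vertical axes) of 6 serpin genes in the 4 groups (horizontal axes); each point is a liver and the black bar is the mean ± SD. Serpinb8 averages 5.00 at 6 months and 6.29 at 24 months, Serpinf2 12.11 and 12.43, and Serpina4-ps1 is spread over 82.3-fold across the 28 livers with the switched livers at the low end.

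Among the inhibitors of coagulation, fibrinolysis and complement, Serpinf2 rose and the rest did not pass. Serpinf2 encodes alpha-2-antiplasmin, the main plasma inhibitor of plasmin. Its values were 11.86 to 12.33 (median 12.14) at 6 months, 12.26 to 12.67 (median 12.36) at 12 months, 12.21 to 12.57 (median 12.46) at 24 months. Switched livers read 12.09 to 12.49 (median 12.23). The groups overlapped by a few livers, although all 7 lifelong livers at 12 and at 24 months exceeded the 6-month mean of 12.11. The rise from 6 to 24 months was 0.31 (SE 0.089, 95% CI 0.13 to 0.50), or 1.24-fold, with limma adjusted p = 0.0433. It kept its direction in all 3 batches (0.37, 0.23 and 0.25). The call was a narrow one: it was lost in 8 of 13 fits that left out 1 liver (replicates 2, 3, 4 and 6 at 6 months and 2, 4, 5 and 6 at 24 months), where the difference was 0.27 to 0.32 with adjusted p of 0.0684 to 0.109. Over all alternatives adjusted p ran from 0.0193 to 0.719. The difference at 12 months was nearly as large, at 0.29 (limma adjusted p = 0.126), and switched minus lifelong gave -0.12 (adjusted p = 0.798). Of the 8 hepatocyte markers 6 had negative differences at 24 against 6 months, with a median of -0.10. Over all genes 49.5% were positive and 6.23% passed. Of the markers 1 passed: Tat, the tyrosine aminotransferase gene, fell by 0.42 (limma adjusted p = 0.0355). Their scores ran from 0.036 to 0.13 at 6 months, from -0.11 to 0.067 in lifelong livers at 24 months and from -0.10 to -0.017 in switched livers, so that the switched livers all lay below the youngest ones. Their part in the differences of the secreted serpins was not tested.

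Serpinc1, which encodes antithrombin, the inhibitor of thrombin and factor Xa, was among the steadiest genes on these arrays. Its 28 values spanned 0.21 log2, or 1.16-fold, and group means were 12.63 ± 0.04, 12.65 ± 0.05 and 12.66 ± 0.06 at 6, 12 and 24 months and 12.61 ± 0.04 in switched livers (SD, n = 6, 7, 7 and 8). The SD within groups was 0.045, and 0.0531% of all genes had a smaller one. The fit gave 0.03 at 24 against 6 months (95% CI -0.05 to 0.11) and -0.04 for the switch (95% CI -0.11 to 0.03). Serping1, the C1 inhibitor that restrains complement and kallikrein, was nearly as even: its SD within groups was 0.079, with 1.76% of genes below it, and its difference at 24 against 6 months was 0.06 (95% CI -0.05 to 0.16). Serpind1, heparin cofactor II, differed by 0.06 over the same ages (95% CI -0.07 to 0.19). Serpinc1 and Serping1 each had a mean signal of 12.64, far above the array medians. The SD ranking takes no account of signal level, and whether the arrays narrow differences at such levels was not tested. The same limit applies to Serpind1 and, below, to Serpina1b, Serpina1c, Serpina1d and Serpinf1.

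Serpina10, the protein Z-dependent inhibitor of factor Xa, varied more. It averaged 9.99 ± 0.36 at 6 months (SD, n = 6), 10.33 ± 0.28 at 12 months and 10.53 ± 0.29 at 24 months (n = 7 each), and 10.64 ± 0.41 in switched livers (n = 8). All 7 livers at 24 months exceeded the 6-month mean, yet the ranges overlapped and the difference of 0.52 (SE 0.18) did not pass (limma adjusted p = 0.104). Serpina5, the protein C inhibitor, lay in the lowest 30% of probe sets and its 24 against 6 month difference was 0.05 (adjusted p = 0.905). All 6 inhibitors of this role had a positive difference at 24 against 6 months, with a median of 0.06, and 1 of them passed. Over all genes 49.5% were positive. Among 23 genes of coagulation and fibrinolysis other than serpins, 1 passed at 24 against 6 months, where 6.23% of all genes did. F7, the factor VII gene that starts the extrinsic pathway, rose by 0.46 (limma adjusted p = 0.0250). A complement list, of which 9 genes were measured, holds proteases and chains of C1q, which are not proteases. Of these 9 genes 1 passed (6.23% of all genes), Cfi, the factor I that cleaves C3b, which rose by 0.24 (limma adjusted p = 0.0178).

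**Figure D2:**
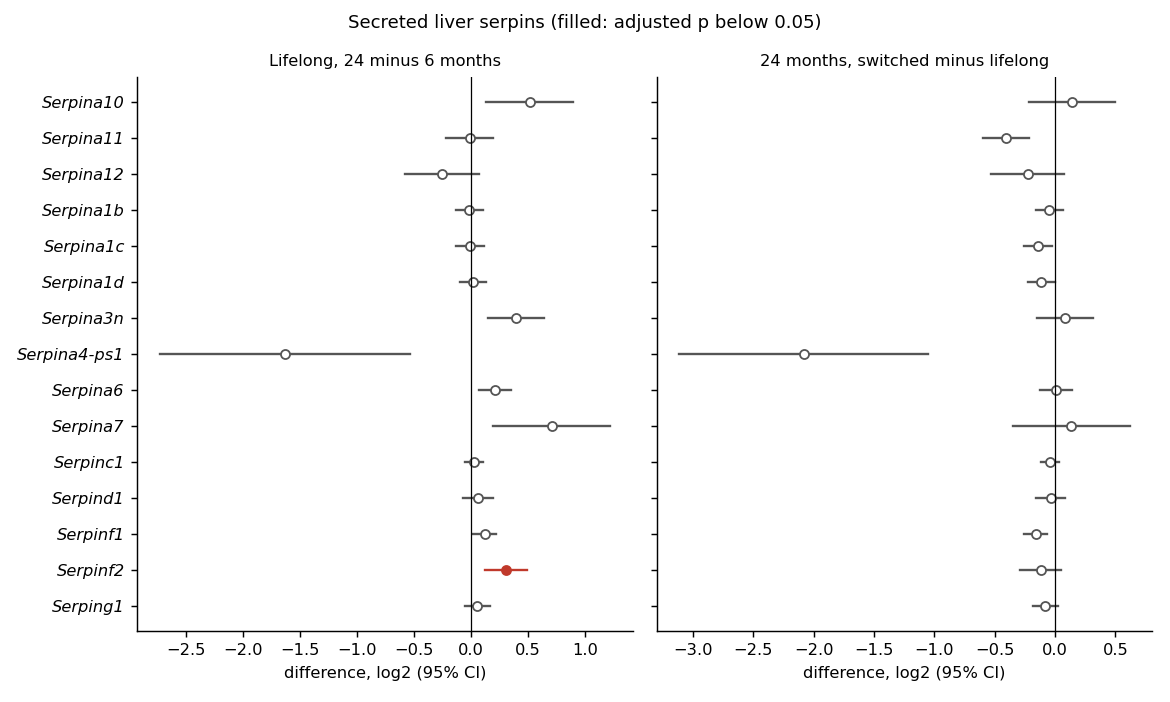
Differences in log2 expression (horizontal axes) with 95% confidence intervals for the 15 secreted liver serpins, at 24 against 6 months of the lifelong diet and for switched against lifelong livers at 24 months; filled points passed the adjusted threshold. Serpinf2 at 0.31 is the 1 filled point, and Serpina4-ps1 has the widest intervals.

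The alpha-1 antitrypsin genes, whose products protect tissue from neutrophil elastase, differed little with age. Serpina1b averaged 13.22 ± 0.09 at 6 months, 13.19 ± 0.05 at 12 months and 13.21 ± 0.08 at 24 months, and its difference at 24 against 6 months was -0.01 (95% CI -0.13 to 0.10). Serpina1c and Serpina1d differed by -0.01 (95% CI -0.13 to 0.12) and 0.02 (95% CI -0.10 to 0.14) over the same ages. In switched livers the 4 measured family members had negative differences, with a median difference of -0.13, but 0 passed in limma. Over all genes 48.9% were positive in this comparison. Of these family members Serpina1f, at -0.16 (limma adjusted p = 0.710), lay in the lowest 30% of probe sets. Serpina1c averaged 12.98 ± 0.14 in switched and 13.09 ± 0.10 in lifelong livers at 24 months, a difference of -0.14 (adjusted p = 0.562), and Serpina1d averaged 11.90 ± 0.11 and 12.01 ± 0.10, a difference of -0.11 (adjusted p = 0.634). A pair of probe sets that match several Serpina1 genes at once gave -0.12 each (limma adjusted p = 0.429 and 0.382). These probe sets read closely related transcripts, so the copies cannot be told apart reliably and their values are not independent.

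Serpina3n, an acute phase serpin of the alpha-1 antichymotrypsin family, lay just outside the threshold. At 6 months the livers read 11.83 to 12.52 (median 12.25), against 12.39 to 13.02 (median 12.60) at 12 months, 12.45 to 12.92 (median 12.62) at 24 months and 12.43 to 13.05 (median 12.71) in switched livers. Every liver of the 3 older groups exceeded the 6-month mean, and the highest 6-month livers reached into their range. The differences against 6 months were 0.41 at 12 months (limma adjusted p = 0.110) and 0.40 at 24 months (adjusted p = 0.0535), and 0.08 for the switch (adjusted p = 0.924). Without replicate 1 of the 6-month group both age differences passed, at 0.47 (adjusted p = 0.0491) and 0.46 (adjusted p = 0.0269). For the 12-month difference that was the 1 of 26 alternatives that passed, and adjusted p reached 0.667. The 24-month difference also passed without replicate 5 at 6 months (0.43, adjusted p = 0.0472) or replicate 2 at 24 months (0.44, adjusted p = 0.0380), and in 10 of 26 alternatives in all, over which adjusted p ran from 0.0269 to 0.674. Of 22 other acute phase genes 5 passed as higher at 24 than at 6 months, where 3.01% of all genes did. They were Itih4 by 0.35, Apcs by 0.87, Lcn2 by 2.08, Saa2 by 2.58 and Orm1 by 0.23 (limma adjusted p from 0.00474 to 0.0474).

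Across livers Serpina3n followed Lcn2, a secreted iron-scavenging acute phase protein. Pearson's r was 0.81 and Spearman's rho 0.81 over 28 livers (permutation p = 1e-05 and 2e-05 with 100000 resamples, of which 1e-05 is the smallest possible; adjusted p = 2.5e-05 and 5e-05 over the 5 relations computed). Without the 2 livers farthest from the Serpina3n median r was 0.78, within batch G150 (18 livers) it was 0.85, and after centring each group on its mean it was 0.78. The other 2 batches hold 5 livers each, too few for a value. Lcn2 ranged from 7.63 to 9.07 at 6 months and from 8.92 to 11.48 at 24 months, and from 9.78 to 12.77 in switched livers.

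**Figure D3:**
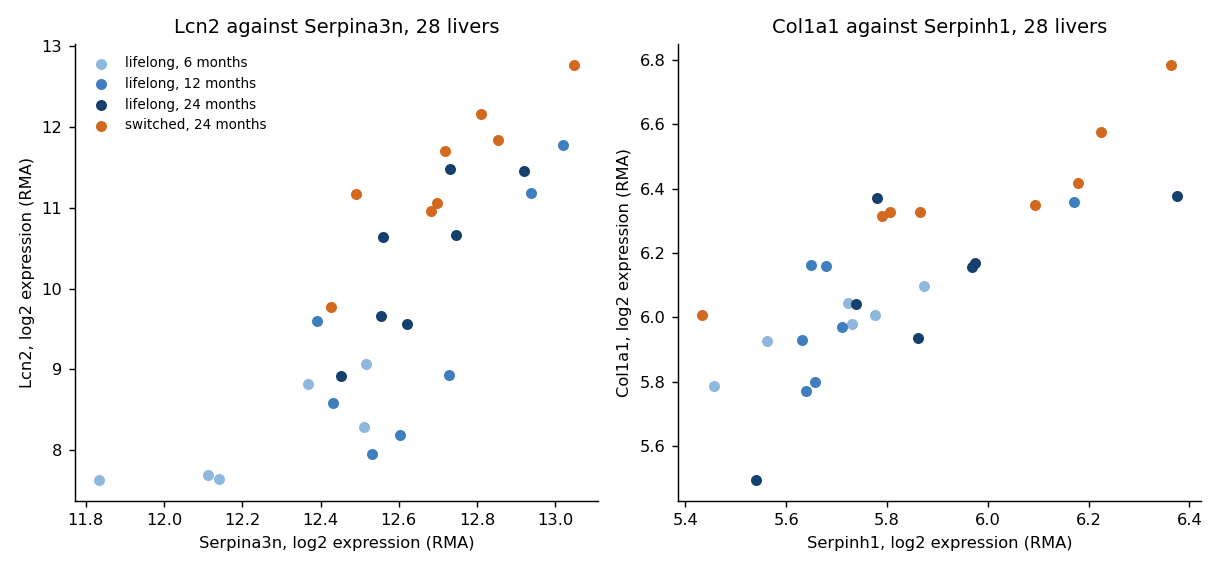
Lcn2 against Serpina3n (left) and Col1a1 against Serpinh1 (right), log2 expression on both axes, 1 point for each of 28 livers, coloured by group. Both clouds climb from lower left to upper right, with r = 0.81 and r = 0.80.

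Both hormone carriers had higher means in the older lifelong groups, without a call. Serpina7 encodes thyroxine-binding globulin. Its transcript lay at 8.94 to 10.55 (median 9.69) at 6 months, 10.10 to 10.94 (median 10.14) at 12 months, 9.52 to 11.10 (median 10.30) at 24 months and 10.15 to 11.26 (median 10.42) in switched livers. The 6-month livers were the most scattered, and the differences of 0.75 at 12 months and 0.71 at 24 months did not pass (limma adjusted p = 0.167 and 0.101). Without replicate 4 of the 24-month group the latter was 0.88 and passed (adjusted p = 0.0369). That was the 1 of 26 alternatives that passed, and adjusted p over them ran from 0.0369 to 0.592. Across all livers Serpina7 spanned 5.01-fold, and its SD within groups exceeded that of 98.3% of genes.

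Serpina6 encodes corticosteroid-binding globulin. The livers read 12.17 to 12.73 (median 12.45) at 6 months, 12.39 to 12.73 (median 12.56) at 12 months, 12.50 to 12.82 (median 12.69) at 24 months and 12.59 to 12.88 (median 12.71) in switched livers. The difference at 24 against 6 months was 0.21 (SE 0.069, limma adjusted p = 0.0736), with all 7 livers above the 6-month mean and overlapping ranges. Without replicate 1 of the 6-month group it passed, at 0.25 (adjusted p = 0.0308). For Serpina6 3 of 26 alternatives passed, with adjusted p from 0.0308 to 0.512 over all of them. Its relation with Nr3c1, the glucocorticoid receptor, was not detected over all livers (r = 0.29, rho = 0.30, permutation p = 0.142 and 0.117, adjusted p = 0.142 and 0.146). Without the 2 farthest livers r was 0.17, and after centring on group means it was 0.21 (permutation adjusted p = 0.406 and 0.277). Within batch G150 alone it passed, with r = 0.57 (adjusted p = 0.0153). Among 9 genes of hormone handling 1 passed at 24 against 6 months (6.23% of all genes), the angiotensin receptor Agtr1a, which rose by 0.32 (limma adjusted p = 0.00847).

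Serpina4-ps1, a transcribed pseudogene of the kallistatin line, was the least steady serpin. Its signal was 10.68 to 12.56 (median 11.01) at 6 months, 9.81 to 11.23 (median 10.41) at 12 months, 8.55 to 11.79 (median 9.46) at 24 months and 6.20 to 9.68 (median 7.45) in switched livers. Of the 8 switched livers 7 lay below the lowest lifelong liver at 24 months, and the exception was replicate 3 at 9.68. The 28 livers spanned 6.36 log2, or 82.3-fold, and the SD within groups, 0.97, exceeded that of 99.9% of genes. The difference for the switch was -2.08 (SE 0.50, limma adjusted p = 0.205), with -2.22, -4.11 and -0.70 in batches G150, G151 and G152. Leaving out replicate 3 of the switched group gave -2.37 with adjusted p = 0.0441. That was the 1 of 28 alternatives that passed, and adjusted p over them ran from 0.0441 to 0.9996.

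With age Serpina4-ps1 differed by -0.77 at 12 months (limma adjusted p = 0.585) and by -1.63 at 24 months (SE 0.53, adjusted p = 0.0755) against 6 months. The 24-month livers spread widely, replicates 5 and 7 lying within the range of the youngest group. Without replicate 7 the 24-month difference was -1.90 (adjusted p = 0.0363), and without replicate 5 it was -2.02 (adjusted p = 0.0254). It passed in 5 of 26 alternatives, over which adjusted p ran from 0.0254 to 0.479. A list of 12 genes holds male-biased genes that depend on growth hormone, with the receptor gene Ghr and the signalling gene Stat5b added. It holds no serpin. Of these 12 genes 5 passed between 6 and 24 months, where 6.23% of all genes did. All of them fell: Ugt2b38 by 1.05, Selenbp2 by 1.11, Cyp7b1 by 0.93, Ugt2b1 by 0.44 and Cyp2d9 by 0.43 (limma adjusted p from 6.56e-05 to 0.0330). In the switch 1 of the 12 passed (0.0266% of all genes), Cyp2d9, which fell by 0.54 (limma adjusted p = 0.0341). Any link with Serpina4-ps1 was not tested.

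Serpina11, a secreted serpin, had the smallest p of the family in the switch. Its values were 7.86 to 8.54 (median 8.14) in lifelong livers at 24 months and 7.49 to 7.92 (median 7.74) in switched livers, with 7.91 to 8.39 (median 8.19) at 6 months and 7.86 to 8.46 (median 8.10) at 12 months. No switched liver reached the lifelong mean, but the ranges met between 7.86 and 7.92. The difference was -0.40 (SE 0.093, 95% CI -0.60 to -0.21, limma adjusted p = 0.175). It kept its sign in the 3 batches (-0.44, -0.85 and -0.09). At 24 against 6 months it differed by -0.01 (95% CI -0.22 to 0.19, adjusted p = 0.969).

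Serpinf1, pigment epithelium-derived factor, an inhibitor of vessel growth that inhibits no protease, showed small and even differences. It averaged 11.95 ± 0.08, 12.09 ± 0.04 and 12.07 ± 0.09 at 6, 12 and 24 months and 11.91 ± 0.07 in switched livers (SD). All 8 switched livers lay below the lifelong 24-month mean, and the difference was -0.16 (SE 0.046, limma adjusted p = 0.343), with -0.17, -0.14 and -0.15 in the 3 batches. Serpina12, the adipokine vaspin, averaged 7.66 ± 0.22 in lifelong and 7.37 ± 0.18 in switched livers at 24 months, a difference of -0.23 (adjusted p = 0.774). Over the 15 secreted serpins 11 differences were negative in the switch, with a median of -0.08, where 48.9% of all genes were positive. Of the 8 hepatocyte markers 5 were negative in the same comparison, with a median of -0.02, and 0 passed.

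**Figure D4:**
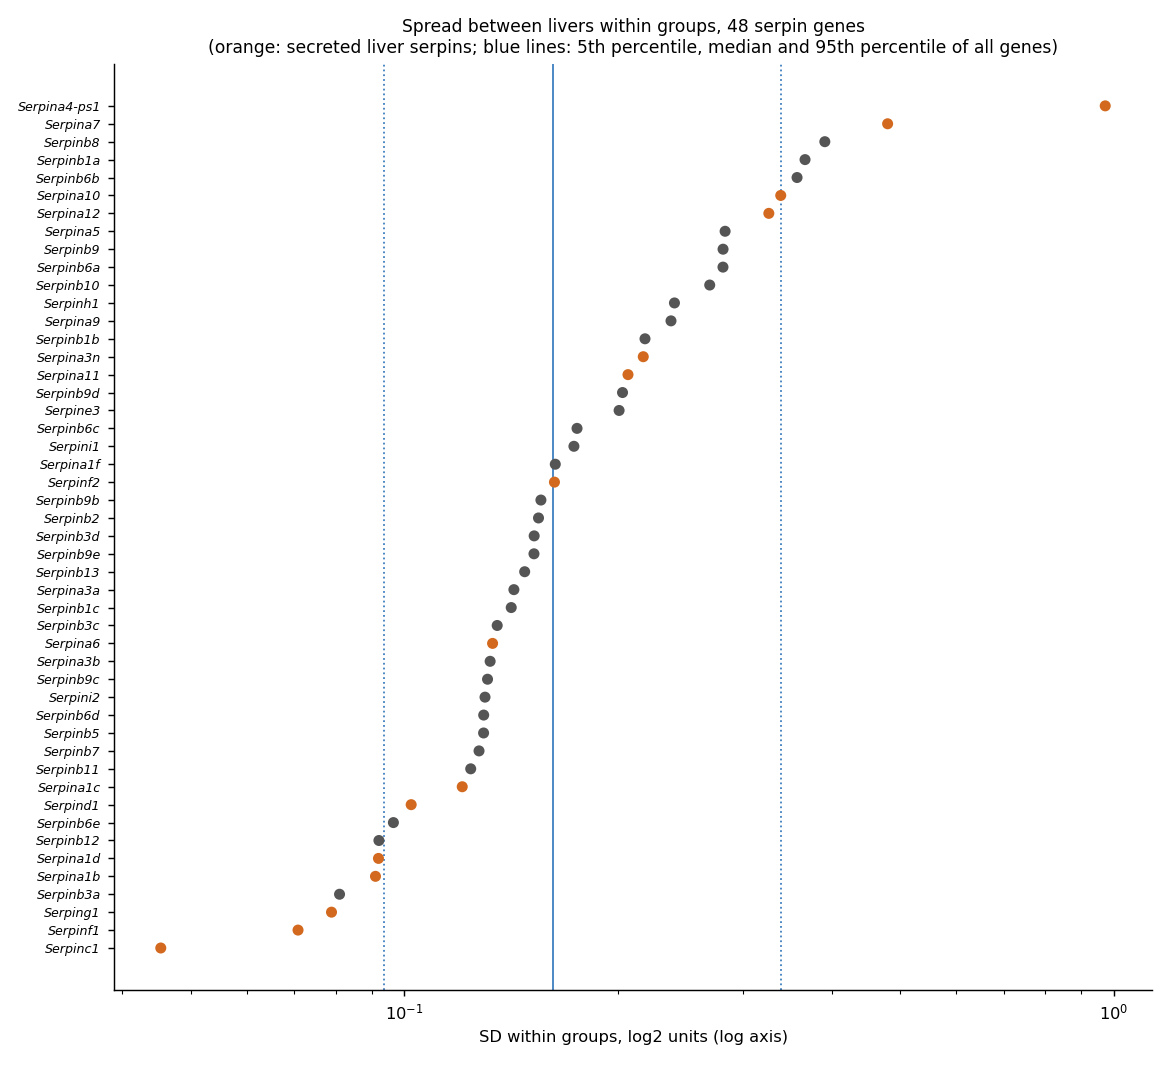
SD between livers within groups (horizontal log axis, log2 units) for the 48 serpin genes (rows, ordered by SD), secreted liver serpins in orange; the solid blue line is the median of all genes (0.162) and the dotted lines its 5th (0.0936) and 95th (0.340) percentiles. Secreted serpins run from Serpinc1 at 0.045 to Serpina7 at 0.48, and the pseudogene Serpina4-ps1, also in orange, lies beyond them at 0.97.

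Serpinh1, the collagen chaperone HSP47, differed by 0.19 at 24 against 6 months (95% CI -0.08 to 0.47, limma adjusted p = 0.473) and by 0.09 for the switch (95% CI -0.16 to 0.35, adjusted p = 0.922). Its livers read 5.46 to 5.87 (median 5.73) at 6 months, 5.63 to 6.17 (median 5.66) at 12 months, 5.54 to 6.37 (median 5.86) at 24 months and 5.43 to 6.36 (median 5.98) in switched livers. The older groups were the more scattered. Across livers it followed Col1a1, a chain of type I collagen, with r = 0.80 and rho = 0.82 (permutation p = 1e-05 each, adjusted p = 2.5e-05 and 5e-05). Values of r were 0.76 without the 2 farthest livers, 0.78 in batch G150 and 0.79 after centring on group means. With Hspa8, a constitutive heat shock cognate, r was 0.29 and rho 0.27 (permutation p = 0.132 and 0.161, adjusted p = 0.142 and 0.161), and 0.22 without the 2 farthest livers. In batch G150 r with Hspa8 was 0.28 (permutation adjusted p = 0.272). Only after centring on group means did that relation pass, with r = 0.58 (adjusted p = 0.00172).

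Col1a1 itself differed by 0.33 between switched and lifelong livers (limma adjusted p = 0.469). Over all genes 6.23% passed at 24 against 6 months. Of 16 genes of collagens and collagen folding 1 passed as higher and 1 as lower. Plod1, a lysyl hydroxylase, rose by 0.27 (limma adjusted p = 0.0358), and P4ha2, a prolyl hydroxylase subunit, fell by 0.37 (adjusted p = 0.0426). Of 8 heat shock genes 2 fell over the same ages, Hsph1 by 0.92 and Dnajb1 by 0.50 (adjusted p = 0.00686 and 0.0206). Of 8 stellate cell markers 0 passed in any comparison, and they had scores of -0.25 to 0.22 in lifelong livers at 24 months and -0.10 to 0.36 in switched livers. Col1a1 is itself among these markers, and their part in the relation was not tested. Of 16 genes of secretory folding and export, the route by which serpins leave the hepatocyte, 3 passed between 6 and 24 months (6.23% of all genes). Hspa5 fell by 0.61, Hyou1 by 0.73 and Syvn1 by 0.54 (limma adjusted p from 0.00319 to 0.0180).

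Serping1 was also set against Tap1, an interferon-responsive peptide transporter. Over 28 livers r was 0.49 and rho 0.60 (permutation p = 0.0085 and 0.00088, adjusted p = 0.0142 and 0.00147). The relation held without the 2 farthest livers (r = 0.48), in batch G150 (r = 0.60) and after centring on group means (r = 0.64). Tap1 averaged 7.42 ± 0.31 at 6 months and 8.02 ± 0.17 at 24 months, while Serping1 averaged 12.62 ± 0.08 and 12.68 ± 0.07.

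The 24 intracellular clade B serpins were mostly dim, with 19 in the lowest 30% of probe sets by mean signal. Of the 15 measured secreted liver serpins 0 lay there, but that list does not hold every secreted serpin. Serpina9, Serpini1 and Serpini2, among the other secreted serpins by role, lay in the lowest 30% too. So did Serpina1f, Serpina3a and Serpina5, which are likewise off the list. At 24 against 6 months 12 clade B differences were positive and 12 negative, with a median of 0.00, and Serpinb8 was the 1 that passed. Over all genes 49.5% were positive and 6.23% passed. Serpinb1a, the inhibitor of neutrophil elastase and related granule proteases, read 5.54 to 6.51 (median 6.04) at 6 months, 5.64 to 6.82 (median 5.91) at 12 months, 6.19 to 7.11 (median 6.58) at 24 months and 6.47 to 7.54 (median 7.18) in switched livers. The oldest groups stood higher with overlap. Its differences were 0.58 at 24 against 6 months (limma adjusted p = 0.0923), 0.58 at 24 against 12 months (adjusted p = 0.236) and 0.39 for the switch (adjusted p = 0.664), and the first passed at 0.70 (adjusted p = 0.0381) without replicate 7 of the 24-month group. The first passed in 2 of 26 alternatives, over which adjusted p ran from 0.0261 to 0.686.

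Serpinb6a, which is known to inhibit cathepsin G, read 6.30 to 6.56 (median 6.39) at 6 months, 6.10 to 6.60 (median 6.43) at 12 months, 6.29 to 7.20 (median 6.69) at 24 months and 6.53 to 7.41 (median 6.86) in switched livers. The 24-month livers reached well above the younger groups while their lowest liver lay within them. The differences were 0.42 at 24 against 6 months (limma adjusted p = 0.0902) and 0.42 at 24 against 12 months (adjusted p = 0.234), and the former passed at 0.50 (adjusted p = 0.0465) without replicate 4 of the 24-month group. At 24 against 6 months Serpinb6a passed in 1 of 26 alternatives, with adjusted p from 0.0465 to 0.763 over all of them. Its paralogue Serpinb6b differed by -0.43 at 12 against 6 months (adjusted p = 0.325). Serpinb10, a serpin of blood cells, averaged 3.25 ± 0.27 at 12 months and 3.54 ± 0.35 at 24 months, a difference of 0.32 (adjusted p = 0.393). It lay in the lowest 30% of probe sets. Without replicate 3 of the 24-month group, at 4.29 where the next liver read 3.54, the difference was 0.19 (adjusted p = 0.611), and over all alternatives it ran from 0.16 to 0.43. A list of 12 genes holds granule proteases of neutrophils, mast cells and cytotoxic cells, the pore protein perforin and the lysosomal cathepsins Ctsl and Ctss. Of these 2 passed as higher at 24 than at 6 months, where 3.01% of all genes did. Prtn3, neutrophil proteinase 3, rose by 0.68 (limma adjusted p = 0.0402). Ctsl, a cathepsin of many cell types and no granule protease, rose by 0.26 (adjusted p = 0.0340). The leukocyte marker scores given beside Serpinb8 apply to these genes too, and their part was not tested.

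**Figure D5:**
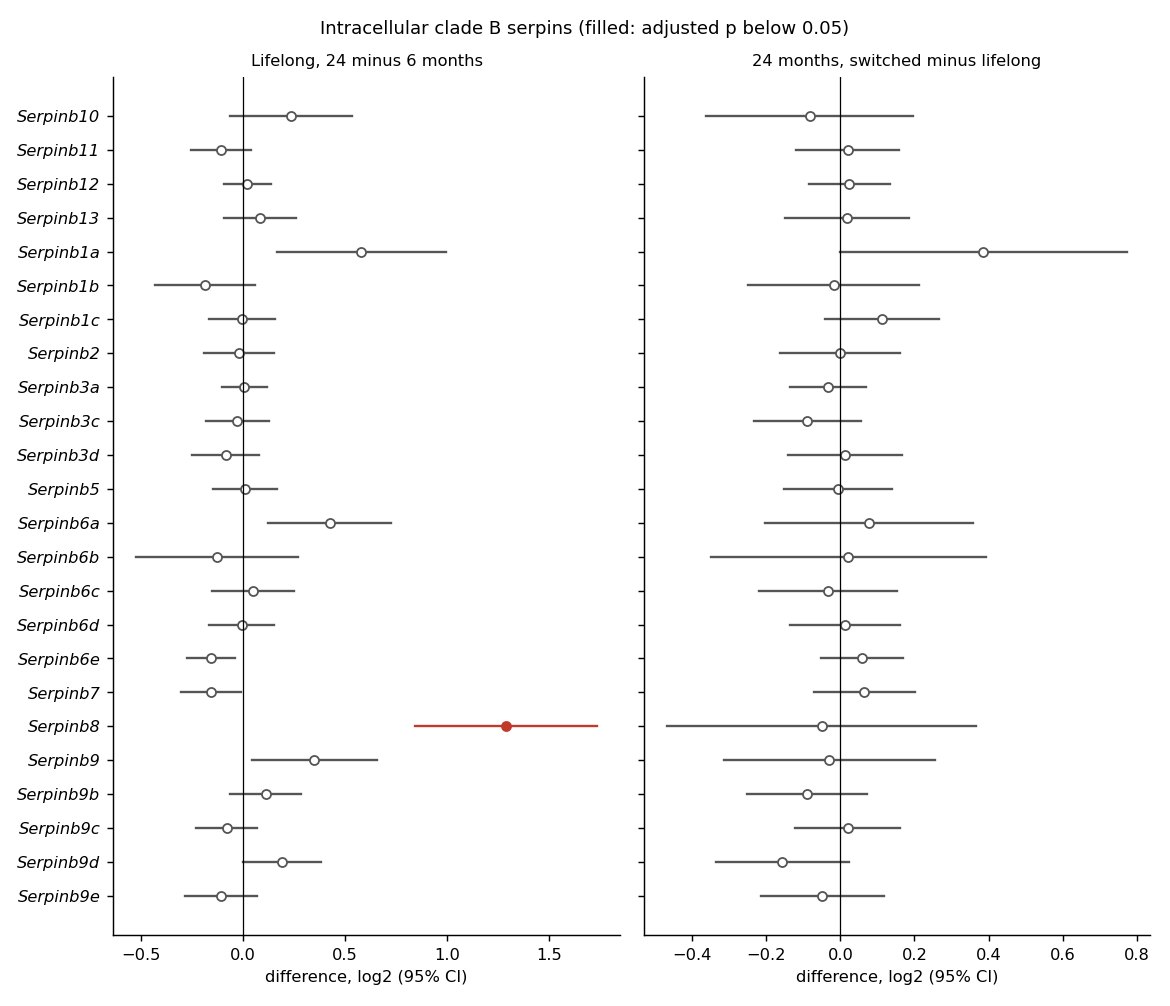
Differences in log2 expression (horizontal axes) with 95% confidence intervals for the 24 intracellular clade B serpins, at 24 against 6 months of the lifelong diet and for switched against lifelong livers at 24 months; filled points passed the adjusted threshold. Serpinb8 at 1.29 is the 1 filled point, and most others lie close to 0.

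The serpins lie in a few runs of neighbouring genes, by the RefSeq gene order in GRCm38.p6, in which all 48 were found. Runs, with starts less than 1 Mb apart, hold 11 clade B genes on chromosome 1, with Serpinb8 at the end, 13 clade B genes on chromosome 13, and 14 clade A genes on chromosome 12. Serpinf1 and Serpinf2 are neighbours on chromosome 11. Of the 11 genes in the chromosome 1 run 1 passed at 24 against 6 months, Serpinb8, where 6.23% of all genes did, and Serpinf1 next to Serpinf2 differed by 0.12 (limma adjusted p = 0.167). In the chromosome 12 run the steady Serpina1b and Serpina1d lie close to the variable Serpina4-ps1, and 0 of 14 passed in any comparison. With 2 calls in the family, these counts do not set the runs apart from all genes.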

How the data were processed

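Liver RNA of 28 mice, with an RNA integrity number above 8.0, was hybridised to 1 single-colour array each. The authors deposited log2 expression values, summarised with RMA per the submitters' processing notes, and these were used as deposited. The version of RMA, and whether all arrays were summarised in 1 run, are not given in the sources used here. Of 35556 probe sets 21218 name exactly 1 gene in the platform annotation. They cover 18820 genes, each represented by its brightest probe set. Dim probe sets were kept.

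A single linear model was fitted over all arrays, with terms for group and array batch, followed by empirical Bayes moderation (limma 3.58.1, R 4.3.3; two-sided), checked on simulated data. The 5 relations across livers were tested by permutation (100000 resamples, two-sided, Python 3.11.15, numpy 2.4.6, scipy 1.17.1). Of 8 relations listed, 3 lacked a probe set for a gene and were not analysed here. Tables were read with pandas 2.3.3 and figures drawn with matplotlib 3.10.9.

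The members, roles, partner lists and markers were chosen with earlier results of these data known. Genes named are members that passed, all secreted liver serpins, the 5 largest differences in each comparison, and of the partner lists those that passed or entered a relation. Alternatives changed the batch term, batches used, groups fitted, low-value filter, normalization, moderation, array weights, replicate block, probe sets and arrays left out.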

Additional observations from a re-analysis of the deposited data

Results flagged for a closer look

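In 84 groups tested over 21 named serpins, 6 held a liver that stood apart from the rest of its group by Dixon's test, and chance gives about 1 in 20 groups. All values are log2 expression, followed by the nearest other liver of the group. Serpinc1 was highest in replicate 3 at 12 months (12.75, next 12.66) and lowest in replicate 3 of the lifelong group at 24 months (12.54, next 12.64). Serpina1b was lowest in switched replicate 7 (12.87, next 13.14). Serpinf1 was highest in switched replicate 3 (12.06, next 11.93), the liver in which Serpina4-ps1 was also highest of its group. Serpina5 was highest in replicate 4 at 12 months (4.45, next 3.72), and Serpinb10 in replicate 3 of the lifelong group at 24 months (4.29, next 3.54).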

How the results depend on the processing

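The number of serpins that passed at 24 against 6 months, 2 as reported, was 1 in batch G150 alone and 1 with only the groups compared (Serpinb8 both times), 0 in batches G151 and G152 alone, 3 with no batch term, 3 with the lowest 30% left out and 3 with trend and robust moderation (Serpina3n added each time), 3 with array weights (Serpina6 added), 4 with quantile normalization repeated (with Serpina3n and Serpina6), 4 with 1-gene probe sets alone and 4 with the mean of a gene's probe sets (with Serpina3n and Serpina4-ps1 each time), and 5 without the 2 arrays with a suffix (Serpinb8 and Serpinf2 with Serpina4-ps1, Serpina9 and Serpinb1a). Without those 2 arrays 1 serpin, Serpinb8, passed at 24 against 12 months. Leaving out 1 liver at a time gave 0 to 1 at 12 against 6 months, 1 to 4 at 24 against 6 months, 0 to 1 at 24 against 12 months and 0 to 1 in the switch. Serpinb8 passed at 24 against 6 months in 13 of 13 such fits and in 12 of 13 other alternatives, and Serpinf2 in 5 of 13 and 10 of 13. Of the relations, Serpinh1 with Hspa8 reached 0.58 after centring on group means and Serpina6 with Nr3c1 0.57 in batch G150. Neither relation passed in any other setting. The causes were not tested. Some of these fits also hold fewer probe sets or fewer livers. Of 192 serpin differences, 35 had an unadjusted p under 0.05 and 0 of these changed sign in an alternative, while 91 of the other 157 did. The 35 were picked by p and the alternatives refit the same arrays, so this contrast follows largely from the choice. It is no separate measure of how firm the directions are.

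With the replicate number as a block beside batch, 3 serpins passed at 24 against 6 months (Serpina3n added). Correlations of same-numbered deviations from group means lay between -0.11 and 0.15. They compare single arrays with batch left in, so they cannot tell whether the numbers pair livers. Leaving out the lowest 30% of probe sets left 23 serpins. With 6 to 8 livers a group, small differences in variable serpins cannot be detected here.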
